A study of Mus musculus with 6 samples.

Results

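Myc and 38 genes of ribosome biogenesis and the nucleolus were followed in sorted bone marrow stem and progenitor cells of wild-type and HDAC6-deficient mice. The genes were chosen by name, as the rows of the deposited table that carry their symbols, and 39 of 39 were found among the 16022 genes of the table. All 39 passed the filter on low counts, which left 12875 genes for testing.

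Ribosomes are built in the nucleolus, where RNA polymerase I transcribes the ribosomal RNA precursor. Small nucleolar ribonucleoproteins (snoRNPs) modify that precursor, and many assembly factors fold, cut and package it into a small and a large subunit that are exported to the cytoplasm. The transcription factor MYC, bound to its partner MAX at the E-box sequence CACGTG, is known to activate many genes of this programme. In blood stem cells, ribosome production and protein synthesis are known to be held low in quiescent cells and to increase when cells divide and differentiate.

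The samples were LSK cells, the lineage-negative fraction of bone marrow with high Sca-1 and positive c-kit, which holds stem cells and early progenitors. The wild-type (WT) group had 3 libraries and the HDAC6 knockout (KO) group had 3. The labels give the genotype as WT or KO and state no other allele, age, sex or treatment, and they do not say which part of Hdac6 was deleted. They also do not say whether each library came from a separate animal, so the p-values cover only the spread among these libraries, which may be technical. The series addresses how HDAC6, a mainly cytoplasmic deacetylase, bears on the homeostasis of these cells.

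Total counts ran from 25993971 to 28743672 per library. Hdac6 itself measured 68.0, 58.2 and 54.3 CPM (read counts scaled to library depth by the TMM method of edgeR) in WT replicates 1, 2 and 3 and 9.62, 7.69 and 11.3 CPM in KO replicates 1, 2 and 3, with an adjusted p of 0.000594 by edgeR's quasi-likelihood test. Kit, the c-kit receptor gene, ranged from 1127 to 1367 CPM in the WT libraries and from 725 to 1082 CPM in the KO libraries. Ly6a, which encodes Sca-1, lay on the other side, at 60.3 to 68.7 CPM in WT and 82.1 to 119 CPM in KO, and DESeq2 called both genes while edgeR called neither. Summed over the list, 12 neutrophil markers gave 47.1 to 116 CPM in WT and 22.6 to 47.8 CPM in KO, and 13 T and natural killer cell markers 82.6 to 91.2 and 73.3 to 130 CPM. In WT most of that last sum was Lck, at 58.5 to 76.7 CPM. In KO replicates 1, 2 and 3 Lck gave 47.5, 43.9 and 57.4 CPM of sums of 73.3, 110 and 130 CPM. The median log2 fold change of the 10 tested T and natural killer cell markers was 1.51, with 7 above WT and 3 below. DESeq2 called 4 of these markers higher, Il2rb, Cd2, Ncr1 and Gzma, at low levels, against 0.897% of all genes it tested. For the 11 tested neutrophil markers the median was -1.19, with 3 above WT and 8 below. DESeq2 called 3 of the neutrophil markers lower, against 0.456% of all genes it tested. Il2rb, a receptor chain of natural killer cells, was at 8.78, 23.6 and 33.3 CPM in KO replicates 1, 2 and 3 and 2.87 to 5.76 CPM in WT, while Cd3d, Cd3e and Cd3g, which encode chains of the T cell receptor complex, stayed at or below 0.471 CPM in each library. The 9 B cell markers summed to 59.7 to 91.0 CPM in WT and 69.9 to 105 CPM in KO, and the 9 erythroid markers to 50.8 to 77.1 and 48.7 to 109.7 CPM. The part of such cells in the values given here was not tested. KO replicate 3 stood closer to the WT libraries than to its own group: the chi-square over degrees of freedom between libraries was 24.9 to 34.2 for KO replicate 3 with the WT libraries, against 51.5 and 55.8 with the other KO libraries.

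The 39 genes lay slightly above WT in the knockout as a group, without a single gene passing the test. The fitted log2 fold change was above 0 for 37 of the 39, where 49.5% of all tested genes were above 0. The median over the 39 was 0.25 on the log2 scale, against -0.0034 over all tested genes. Polr1a and Noc2l were the 2 genes below WT, at -0.09 and -0.12. At an edgeR adjusted p of 0.05 over all genes 0 of the 39 were called, where 0% of all tested genes were called higher and 0.00777% lower. DESeq2 called 3 of the 39 higher, Npm1, Gar1 and Rrs1, and 0 lower, against 0.897% higher and 0.456% lower of all genes it tested. At an unadjusted edgeR p of 0.05 there were 10 of the 39 on the higher side and 0 on the lower, against 7.24% and 6.15% of all tested genes. Their number was 24 without KO replicate 3, 5 without KO replicate 1 and 6 without WT replicate 1. The share of all tested genes at that p was not computed in these fits. The edgeR calls over all genes at an adjusted p of 0.05 were 44, 4 and 1 in the same order, against 1 with all 6 libraries. These counts therefore cannot be read as a result about the 39 alone.

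The KO libraries were unequal. Over the 39 genes the mean of log2(CPM + 0.5), centred on the mean of all 6 libraries, was -0.15, -0.15 and -0.08 in WT replicates 1, 2 and 3 and 0.31, 0.15 and -0.09 in KO replicates 1, 2 and 3. KO replicate 3 thus lay within the WT range and KO replicates 1 and 2 above it. KO replicate 1 was the highest of the 6 libraries in 34 of the 39 genes, against 22.8% of all tested genes. KO replicate 3 was the lowest KO library in 39 of the 39, against 36.7% of all tested genes. KO replicate 1 exceeded every WT library in 36 of the 39 genes (31.2% of all tested genes), KO replicate 2 in 32 (29.6%) and KO replicate 3 in 9 (22.4%). In those last 9 genes all KO libraries lay above all WT libraries, a pattern that 8.86% of all tested genes had, and 0 of the 39 had all KO libraries below WT, against 9.7% of all tested genes. Without KO replicate 1 the median was 0.14 with 35 genes above WT, and without KO replicate 3 it was 0.32 with 37. Together the 39 genes took 0.879% to 0.898% of the counts of each WT library, and 1.11%, 1.01% and 0.914% of those of KO replicates 1, 2 and 3.

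**Figure D1:**
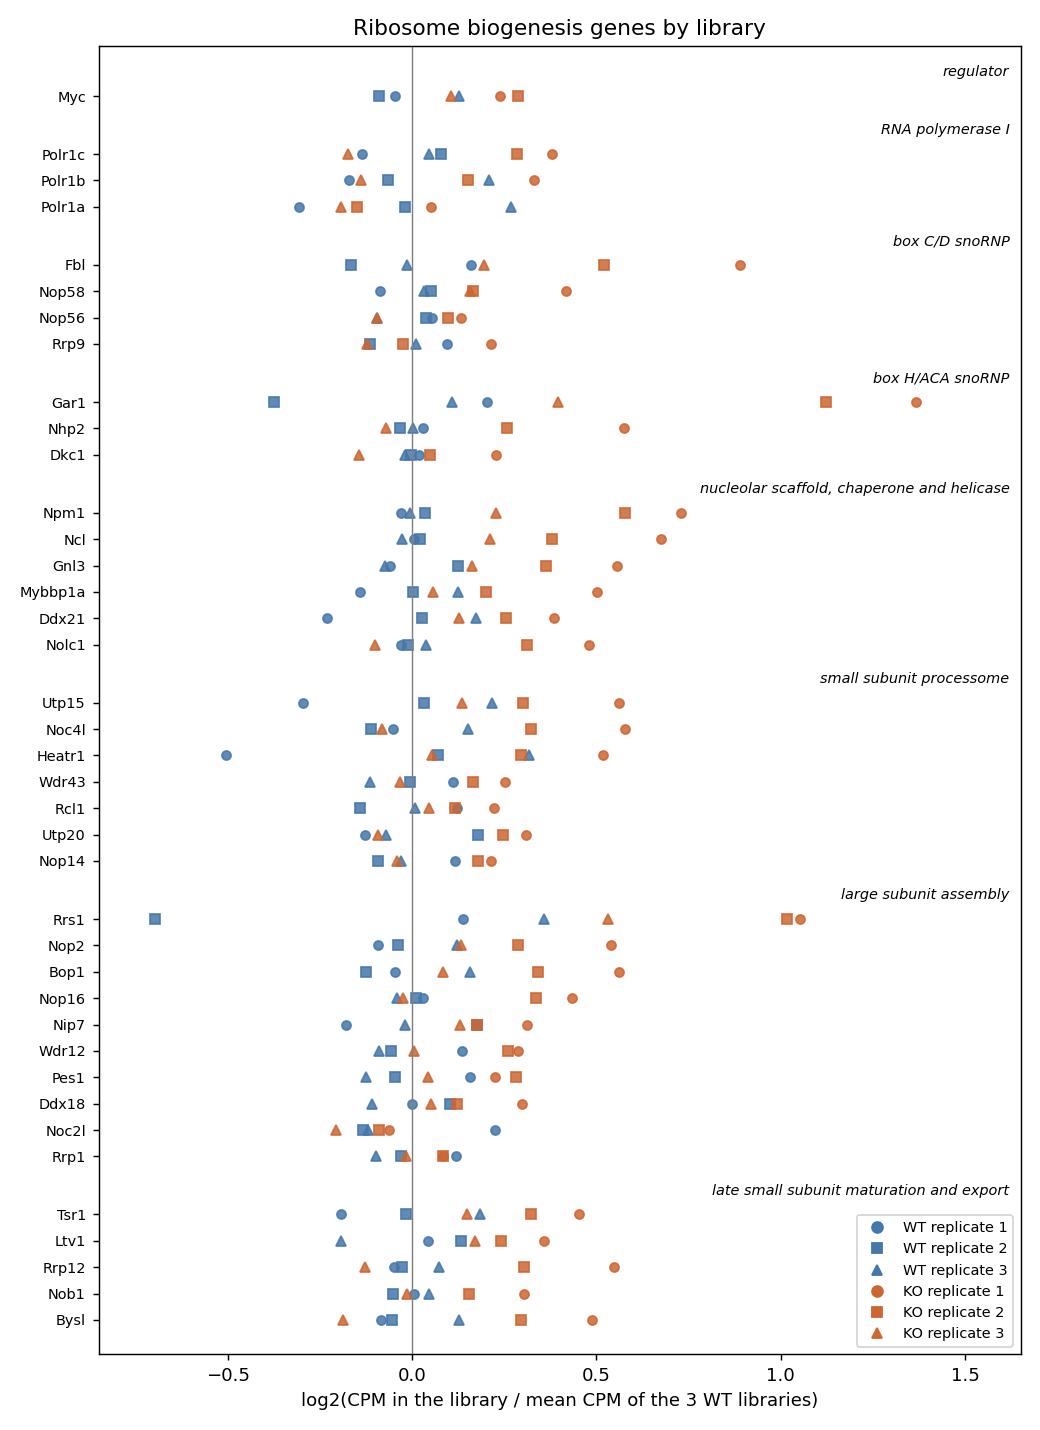
Each row is 1 gene, grouped by role, and each symbol 1 library, placed on the x axis at the log2 ratio of its normalised CPM to the mean of the 3 WT libraries (blue WT, orange KO; circle, square and triangle for replicates 1, 2 and 3). KO replicate 1 is the rightmost symbol in 34 of 39 rows, and KO replicate 3 is the leftmost KO symbol in all 39.

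Myc measured 994, 964 and 1120.5 CPM in WT replicates 1, 2 and 3 and 1209.7, 1253 and 1105 CPM in KO replicates 1, 2 and 3. The groups overlapped, since KO replicate 3 lay just below WT replicate 3, while KO replicates 1 and 2 lay above all WT libraries. The log2 fold change of Myc was 0.21 (SE 0.10; edgeR adjusted p = 0.378), and it had an exact two-sided permutation p of 0.2. With 3 libraries against 3 that permutation test cannot go below 0.1. Per length of transcript Myc was among the most abundant of the 39, at 482 FPKM (fragments scaled by gene length and library depth) as the mean of the WT libraries, next to Npm1 at 669 FPKM.

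Among 11 genes of MYC's dimerisation network, 4 lay above WT and 7 below. The median over these 11 was -0.18 on the log2 scale, and 0 passed the edgeR test. When each library was left out that median ran from -0.263 (without WT replicate 3) to -0.115 (without WT replicate 2). Mga, which encodes a large MAX-binding repressor, averaged 108 ± 8.03 CPM in WT and 85.8 ± 9.48 CPM in KO (SD, n = 3 each). All its KO libraries lay below all WT libraries, a pattern that 9.7% of all tested genes had. The log2 fold change of Mga was -0.33 (SE 0.12, edgeR adjusted p = 0.329). Mxd1, which encodes a MAX partner that opposes MYC, had a log2 fold change of -0.25, and Mlxip, a gene of the parallel MLX branch, 0.36. Mxd4 had 1.23, at only 0.754 CPM in WT and 1.77 CPM in KO.

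The E-box CACGTG, which reads the same on both strands, was searched in RefSeq promoter windows of build GRCm38.p6 that span 250 bases before to 50 after the transcript start. Windows were found for 33 of the 39 genes, and not for Myc, Npm1, Fbl, Bop1, Rrs1 and Rrp12. The motif was present in 7 of the 33 (21.2%), against 11.6% of the 10332 tested genes with a window and 8.09% of all 27025 genes with one. These 7 sites are shown because CACGTG is the canonical MYC binding sequence. Each line gives 30 bases, 5′ to 3′ on the strand of the gene, with the E-box in capitals.
Nop2 (chr6:125131811-125131840, plus strand): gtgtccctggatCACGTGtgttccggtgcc
Pes1 (chr11:3963965-3963994, plus strand): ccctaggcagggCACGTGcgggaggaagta
Wdr43 (chr17:71616220-71616249, plus strand): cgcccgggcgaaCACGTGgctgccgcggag
Tsr1 (chr11:74898092-74898121, plus strand): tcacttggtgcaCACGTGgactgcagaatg
Ltv1 (chr10:13193092-13193121, minus strand): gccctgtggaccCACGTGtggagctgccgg
Utp20 (chr10:88826765-88826794, minus strand): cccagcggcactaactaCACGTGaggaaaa
Mybbp1a (chr11:72441347-72441376, plus strand): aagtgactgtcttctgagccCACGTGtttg

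The site of Nop2 began 60 bases before the annotated start, and the other 6 began within the first transcribed bases, from base 3 in Pes1 to base 41 in Mybbp1a. The variant CACGCG, searched on both strands as CACGCG and CGCGTG, was in 12 of the 33 windows (36.4%), against 19.3% of tested genes with a window. Pes1 and Mybbp1a held both motifs, and no site of one overlapped a site of the other in these 33 windows. The median log2 fold change was 0.26 for the 7 genes with CACGTG and 0.20 for the 26 without. For the variant it was 0.24 for the 12 genes with it and 0.165 for the 21 without. Over all tested genes with a window the median was 0.03 with CACGTG and -0.006 without. These differences were not tested. A match describes the letters of the window and not the binding of a factor.

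The 3 RNA polymerase I subunit genes did not differ in 1 direction. Polr1a encodes the largest catalytic subunit and gave 81.6, 99.6 and 122 CPM in WT and 105, 91.0 and 88.2 CPM in KO replicates 1, 2 and 3. Its KO values lay within the WT range, and its log2 fold change was -0.09 (SE 0.15, edgeR adjusted p = 0.807), turning to 0.07 without WT replicate 3, and -0.22, -0.17 and -0.04 without WT replicate 1, KO replicate 1 and KO replicate 3. Polr1b, the second large subunit, measured 155, 167 and 202 CPM in WT and 219.9, 194 and 159 CPM in KO (log2 fold change 0.13, SE 0.14, edgeR adjusted p = 0.713). That value was 0.02 without KO replicate 1, 0.05 without WT replicate 1 and 0.25 without either WT replicate 3 or KO replicate 3. Polr1c, a subunit shared with RNA polymerase III, measured 54.5, 63.1 and 61.8 CPM in WT and 77.8, 72.9 and 53.0 CPM in KO. Its log2 fold change was 0.18 (SE 0.16), or 0.08 without KO replicate 1, 0.12 without WT replicate 1 and 0.33 without KO replicate 3, its lowest library.

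Of the box C/D snoRNP genes, whose particles methylate ribosomal RNA, Fbl and Nop58 had KO libraries all above WT. Fbl, which encodes the methyltransferase fibrillarin, measured 167, 134 and 148 CPM in WT and 277, 215 and 172 CPM in KO. KO replicate 3 exceeded the highest WT library by little, and the log2 fold change was 0.56 (SE 0.17, edgeR adjusted p = 0.298), or 0.37 without KO replicate 1. Nop58, a core scaffold protein of the particle, gave 200.3, 220.4 and 217 CPM in WT and 284, 238 and 237 CPM in KO (log2 fold change 0.25, SE 0.11, edgeR adjusted p = 0.36; 0.16 without KO replicate 1). Nop56, the paired scaffold protein, and Rrp9, a particle-specific protein of the snoRNP that guides early cleavage, had log2 fold changes of 0.05 and 0.03 with overlapping groups. At 530.3 ± 29.7 CPM in WT and 548 ± 45.7 CPM in KO (SD, n = 3 each), Nop56 differed by less than the spread between libraries.

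The box H/ACA snoRNP, which converts uridine to pseudouridine, holds Dkc1, Nhp2 and Gar1 in this set, and they differed from each other. Gar1 measured 13.8, 9.26 and 12.9 CPM in WT and 31.0, 26.1 and 15.8 CPM in KO. All KO libraries lay above WT, and its log2 fold change of 1.02 (SE 0.27) was the highest among the 39, with an edgeR adjusted p of 0.298 and a DESeq2 adjusted p of 0.0342. That log2 fold change was 0.81 without KO replicate 1 and 1.25 without KO replicate 3. Nhp2, an RNA-binding core protein, measured 143, 136 and 139.8 CPM in WT and 208, 167 and 133 CPM in KO. KO replicate 3 was its lowest library, and the log2 fold change of 0.28 (SE 0.15) became 0.10 without KO replicate 1 and 0.43 without KO replicate 3. Dkc1, the pseudouridine synthase dyskerin, measured 414, 408 and 403 CPM in WT and 478, 422 and 369 CPM in KO. Its log2 fold change was 0.05 (SE 0.11, edgeR adjusted p = 0.854). It went below 0 with upper quartile scaling, with library size alone, on log2(FPKM + 1) and without KO replicate 1.

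The nucleolar scaffold, chaperone and helicase genes had the highest median log2 fold change of the role groups with more than 3 members, 0.32, and 6 of 6 were above WT. Npm1, which encodes the abundant nucleolar chaperone nucleophosmin, measured 755, 789 and 767 CPM in WT and 1277, 1150.0 and 903 CPM in KO. The WT libraries lay close together, and all KO libraries lay above them. Its log2 fold change was 0.53 (SE 0.12), or 1.44-fold, and its edgeR p before adjustment was the smallest of the 39 (edgeR adjusted p = 0.298, DESeq2 adjusted p = 0.0215). Without KO replicate 3 its log2 fold change was 0.66 (edgeR adjusted p = 0.0375). Without KO replicate 1 it was 0.42 (edgeR adjusted p = 0.558), and without KO replicate 2 it was 0.50 (edgeR adjusted p = 0.744). Ncl, which encodes nucleolin, a binder of ribosomal RNA and its chromatin, measured 920.2, 930.3 and 900.3 CPM in WT and 1463, 1192 and 1062 CPM in KO. All KO libraries lay above WT here too, with a log2 fold change of 0.43 (SE 0.12, edgeR adjusted p = 0.298).

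Gnl3, which encodes the GTP-binding protein nucleostemin, was the third of this role group with separate groups, at 159 ± 12.4 CPM in WT and 205 ± 27.9 CPM in KO (SD, n = 3 each; log2 fold change 0.37). The rRNA-processing and transcription regulator gene Mybbp1a, the RNA helicase gene Ddx21 and Nolc1, which encodes a snoRNP chaperone, had log2 fold changes of 0.26, 0.26 and 0.25. In all 3 the KO replicate 3 value lay within or below the WT range.

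**Figure D2:**
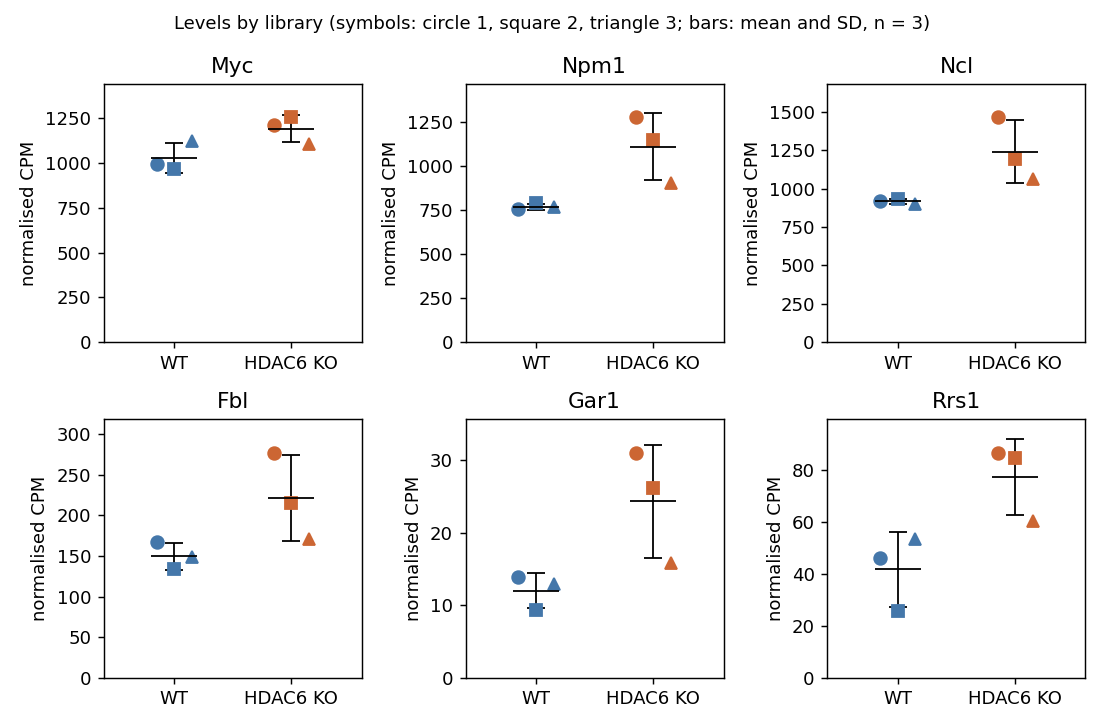
Normalised CPM of Myc, Npm1, Ncl, Fbl, Gar1 and Rrs1 by library, with each y axis starting at 0; horizontal bars are means and error bars SD (n = 3), and circle, square and triangle are replicates 1, 2 and 3. KO replicate 3 (triangle) is the lowest KO library in all 6 panels, and only in Myc does it lie below a WT library.

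Genes of the small subunit processome, the large early particle on the precursor RNA, were above WT in 7 of 7 cases, each with overlapping groups, and their log2 fold changes had a median of 0.16. Without KO replicate 1 that median was 0.09, and without KO replicate 3 it was 0.28. Utp15, a component of its first-binding module, measured 80.5, 101 and 115 CPM in WT and 146, 122 and 109 CPM in KO (log2 fold change 0.34, SE 0.16, edgeR adjusted p = 0.375). WT replicate 1 was low and KO replicate 3 lay below WT replicate 3, and the log2 fold change was 0.22 without either WT replicate 1 or KO replicate 1. Noc4l, which acts in nuclear small subunit maturation, measured 133, 128 and 154 CPM in WT and 207, 173 and 131 CPM in KO (log2 fold change 0.30, SE 0.16, edgeR adjusted p = 0.431). This was 0.14 without KO replicate 1 and 0.46 without KO replicate 3. Heatr1 had a log2 fold change of 0.30 with the widest WT range of this role group, 101 to 179 CPM. The other 4, Wdr43, Rcl1, Utp20 and Nop14, ran from 0.12 to 0.16.

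Large subunit assembly genes were above WT in 9 of 10 cases, and their log2 fold changes had a median of 0.20. Rrs1, which helps to bring a ribosomal RNA and its proteins into the early large particle, measured 46.0, 25.7 and 53.5 CPM in WT and 86.6, 84.5 and 60.3 CPM in KO. WT replicate 2 stood low, all KO libraries lay above WT, and the log2 fold change was 0.89 (SE 0.25, edgeR adjusted p = 0.298, DESeq2 adjusted p = 0.0342). It was 0.63 without WT replicate 2 and 1.11 without WT replicate 3. Nop2, which encodes a ribosomal RNA methyltransferase, measured 162, 169 and 189 CPM in WT and 252, 211 and 189.8 CPM in KO. Its groups barely separated, and its log2 fold change was 0.33 (SE 0.13, edgeR adjusted p = 0.331), or 0.21 without KO replicate 1.

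The PeBoW complex, which is needed for large subunit maturation, is formed by the products of Pes1, Bop1 and Wdr12. Bop1 had a log2 fold change of 0.34 (SE 0.14), Pes1 0.19 (SE 0.11) and Wdr12 0.19 (SE 0.12), with edgeR adjusted p of 0.345, 0.488 and 0.488. In each of them KO replicates 1 and 2 lay above all WT libraries and KO replicate 3 did not. Nop16, Nip7 and Ddx18 had 0.26, 0.21 and 0.16. Rrp1 (0.05) and Noc2l (-0.12) had overlapping groups, and for Noc2l the WT mean of 36.2 ± 5.30 CPM and the KO mean of 33.4 ± 1.75 CPM (SD, n = 3 each) differed by less than the WT spread.

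Among genes of late small subunit maturation and export, 5 of 5 were above WT, and the log2 fold changes had a median of 0.26, or 0.105 without KO replicate 1 and 0.39 without KO replicate 3. Tsr1, a GTPase-like factor of the late particle, measured 114, 129 and 148 CPM in WT and 179, 163 and 145 CPM in KO (log2 fold change 0.31, SE 0.13, edgeR adjusted p = 0.349). KO replicate 3 again lay below WT replicate 3. Ltv1, which must leave the particle before it matures, measured 104, 111 and 88.7 CPM in WT and 130.1, 119.9 and 114 CPM in KO. The KO libraries all lay above WT, and the log2 fold change was 0.26 (SE 0.12, edgeR adjusted p = 0.38). Rrp12, an export factor, Bysl, which encodes bystin, and Nob1, the nuclease of the last cut on the small subunit RNA, had log2 fold changes of 0.27, 0.23 and 0.15 with overlapping groups.

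Levels per length differed widely among the 39. In the WT libraries the mean deposited FPKM was lowest for Utp20 (5.83), Gar1 (11.7), Noc2l (14.4) and Polr1a (17.6), and highest for Npm1 (669), Myc (482), Nop56 (315) and Ncl (249). Between them, Nop2, Ddx18, Pes1 and Noc4l stood at 71.7 to 77.8 FPKM with ranges that overlapped among the WT libraries. The WT libraries agreed more closely with each other than the KO libraries did for most of the genes: SD over mean was larger in KO for 26 of the 39, against 47.2% of all tested genes. Its median was 8.12% in WT and 13.6% in KO for the 39, against 15.1% and 14.0% over all tested genes.

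A further 118 ribosome biogenesis factors, outside the 39, lay mostly on the same side. The fitted log2 fold change was above 0 for 100 of the 118, with a median of 0.18, and 0 passed the edgeR test in either direction. At an unadjusted edgeR p of 0.05 there were 20 higher and 0 lower, against 7.24% and 6.15% of all tested genes. DESeq2 called 1 of the 118, Utp18, a share near the 0.897% that it called higher over all genes. The median was 0.11 without KO replicate 1 and 0.24 without KO replicate 3. By role the medians were 0.19 for 12 genes of the RNA polymerase I machinery, 0.21 for 11 snoRNP factors, 0.17 for 42 small subunit factors and 0.19 for 53 large subunit factors. Without KO replicate 1 the last 3 were 0.11, 0.10 and 0.10, and the snoRNP factors stood at 0.14 without WT replicate 3.

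Utp18, which encodes a small subunit processome protein, measured 16.3, 11.8 and 15.03 CPM in WT and 45.6, 36.4 and 14.8 CPM in KO replicates 1, 2 and 3. KO replicate 3 lay among the WT values, and the log2 fold change was 1.16 (SE 0.35, edgeR adjusted p = 0.298, DESeq2 adjusted p = 0.0411). Pno1 (0.50), Nol9 (0.85) and Lyar (0.48) followed in the subunit lists, each with all KO libraries above WT. Ubtf, which encodes the main activator of ribosomal RNA gene promoters, had a log2 fold change of 0.24 with separate groups, and Polr1d, a small polymerase subunit gene, 0.26. Snu13 and Ruvbl2, which encode a box C/D core protein and an assembly helicase, had 0.33 and 0.39. On the lower side Nop53 (-0.19), Rbm34 (-0.17), Znrd1 (-0.14), Ttf1 (-0.11), Pdcd11 (-0.08), Aatf (-0.06) and Nop10 (-0.01) had the smallest p of their lists, with edgeR adjusted p of 0.477 or more.

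The 79 cytosolic ribosomal protein genes, which encode the proteins that these factors assemble, were divided. There were 45 above WT and 34 below. All KO libraries lay above all WT libraries in 14 and below them in 15, against 8.86% and 9.7% of all tested genes. At an unadjusted edgeR p of 0.05 there were 6 higher and 8 lower, against 7.24% and 6.15%. DESeq2 called 0 higher and 1 lower, against 0.897% and 0.456% of all genes it tested. The median of the log2 fold changes of the 79 was 0.03. It turned to -0.02 with upper quartile scaling, -0.05 with library size alone, -0.04 on log2(FPKM + 1) and -0.02 without KO replicate 1. Over all tested genes the median was -0.0034, and -0.05, -0.08, -0.05 and -0.0034 in the same order. With the other scalings and FPKM all genes thus shifted down too. The library means of the ribosomal protein genes were 0.07, 0.00 and -0.08 in KO replicates 1, 2 and 3, against -0.01 to 0.01 in WT. The difference between the 39 genes and the ribosomal protein genes was not tested.

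**Figure D3:**
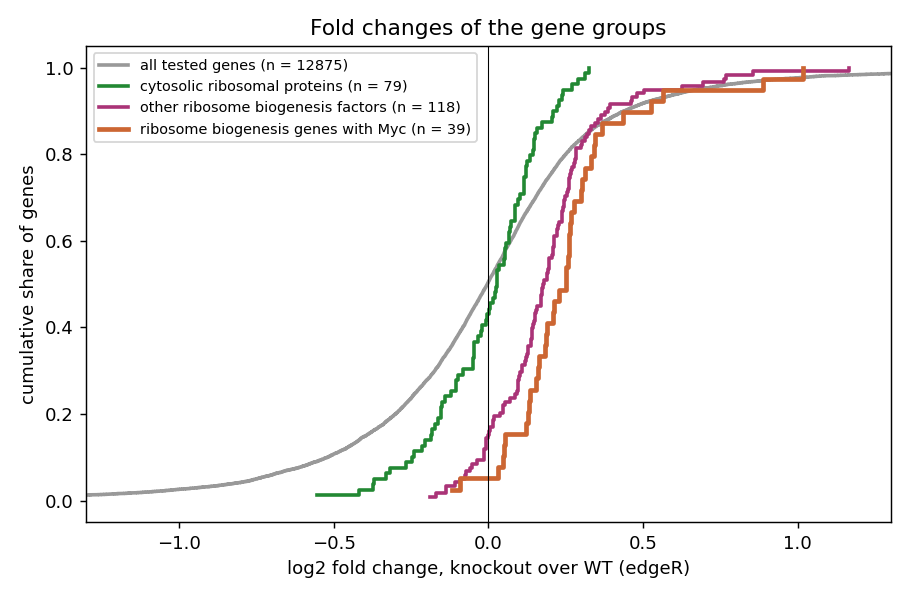
Cumulative share of genes (y axis) against the edgeR log2 fold change of KO over WT (x axis) for the 39 genes, 118 other ribosome biogenesis factors, 79 cytosolic ribosomal protein genes and all 12875 tested genes. The curve of the 39 crosses the median at 0.25, that of the other factors at 0.18, that of the ribosomal protein genes at 0.03 and that of all genes near 0.

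Markers of G2 and mitosis stood in a similar order across the KO libraries. Of 20 such markers 19 were above WT (median 0.30 on the log2 scale), against 49.5% of all tested genes. DESeq2 called 2 of them higher, Ccna2 and Plk1, against 0.897% of all genes it tested, while edgeR called 0. At an unadjusted edgeR p of 0.05 there were 11 higher and 0 lower, against 7.24% and 6.15% of all tested genes. In 10 of the 20 all KO libraries lay above all WT libraries, against 8.86% of all tested genes. The library means of the 20 markers were -0.11, -0.23 and -0.10 in WT replicates 1, 2 and 3 and 0.34, 0.14 and -0.05 in KO replicates 1, 2 and 3. KO replicate 1 was the highest library in 20 of 20, against 22.8% of all tested genes. Of the 10 stem cell and gate markers 3 were above WT and 7 below, with a median log2 fold change of -0.31. They were lower in KO replicates 1 and 2 than in KO replicate 3. Their means were -0.17, -0.30 and 0.16 in KO replicates 1, 2 and 3, against 0.20, 0.28 and -0.18 in WT. The low mean of WT replicate 3 rested largely on Slamf1, at 1.51 CPM there and 5.98 to 8.77 CPM in the other libraries. The part of cell cycle state and of cell composition in the values of the 39 genes was not tested. In bulk RNA a different share of cells and a different level per cell cannot be told apart.

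**Figure D4:**
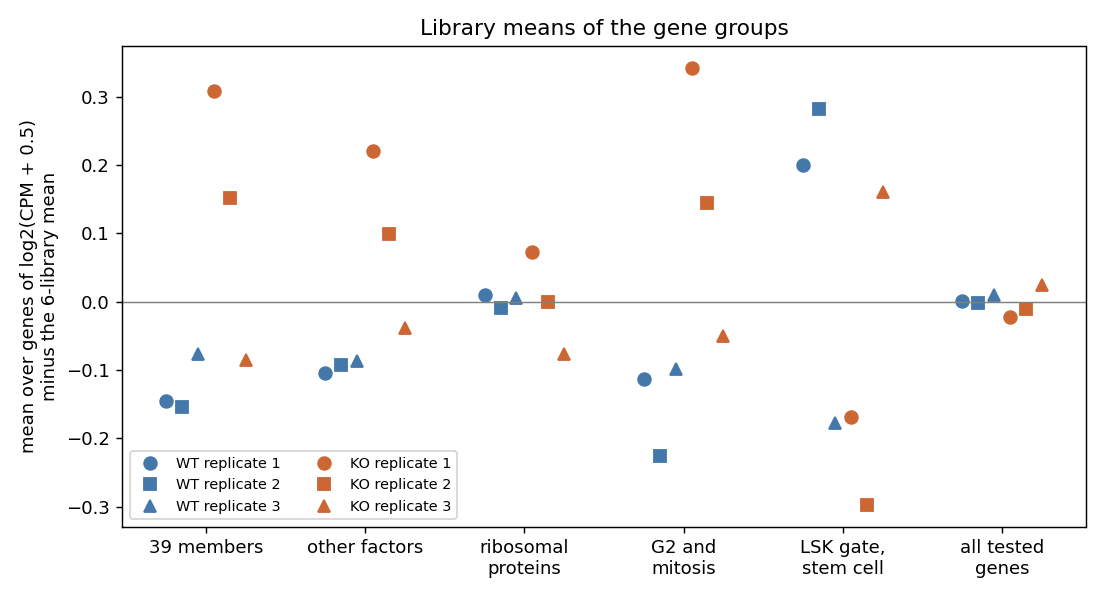
Mean over genes of log2(CPM + 0.5), centred on the mean of the 6 libraries (y axis), for 6 gene groups (x axis); blue WT, orange KO, with circle, square and triangle for replicates 1, 2 and 3. For the 39 genes, the other factors and the G2 and mitosis markers, KO replicates 1 and 2 lie above all other libraries, and KO replicate 3 is the lowest KO library.

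The counting of some of the 39 is uncertain. In 10 of them the deposited counts were not whole numbers in at least 1 library, and in all 6 for Polr1b, Wdr12, Noc2l, Nip7, Bysl and Tsr1. In the GENCODE M21 annotation of GRCm38, 12 of the 39 have exons that overlap another gene of the table on the opposite strand, among them Bysl with Ccnd3, Gnl3 with Pbrm1, Dkc1 with Mpp1, Nhp2 with Rmnd5b and Nop56 with Idh3b. No source used here says whether the counting used strand, so reads of such partners may not be separated and these levels are uncertain. Over the 24 genes with neither feature the median log2 fold change was 0.25, with 23 above WT.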

How the data were processed

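RNA-seq of LSK cells from 3 WT and 3 HDAC6 KO samples was used. The deposited table, made by the authors, gives per gene symbol an estimated count and an FPKM value for each library, per the file headers. Build GRCm39, featureCounts 2.0.3, HISAT2 2.2.1, DESeq2 and SAMtools 1.13 are listed in the submitters' processing notes, without roles. Annotation, strand setting and treatment of shared reads: not given in the sources used here. Of the estimated counts, 19.6% to 20.9% per library were not whole and were rounded.

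KO was compared with WT by edgeR 4.0.16 (R 4.3.3) over all genes: filterByExpr with a minimum count of 10, TMM factors of 0.952 to 1.034, glmQLFit with robust dispersion (legacy option on), glmQLFTest and a Benjamini-Hochberg adjusted p of 0.05. Standard errors are the log2 fold change over the root of F. A count of 0 allows 3 counts, 0.104 to 0.115 CPM, for counting error only. FPKM served for levels between genes and 1 alternative, limma 3.58.1 on log2(FPKM + 1). DESeq2 1.42.0 was another alternative. On simulated counts for the 12875 genes, with 200 changed genes in each of 3 simulations, edgeR recovered 20.7% of 1.5-fold and 61.7% of 2-fold changes, with 9.2% of calls false.

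The 39 genes and all lists were chosen with earlier results of these data known. Values in every library are given for Myc, Hdac6 and the 2 genes of smallest p per role group (all in groups of 3 or fewer), and from each list of other factors the 2 genes of smallest p per direction are named; other names were chosen after their values were seen. Gene symbols of 39 of 39 were found in GENCODE M21, used for names and overlaps only.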

Additional observations from a re-analysis of the deposited data

How the results depend on the processing

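The median log2 fold change of the 39 genes stayed above 0 under all alternatives run, from 0.14 to 0.32 when each library was left out. It was 0.15 on log2(FPKM + 1), 0.17 with library size alone and 0.20 with upper quartile scaling, where 33 of 39 lay above WT. Over all tested genes the medians were -0.05, -0.08 and -0.05 in the same order, with 5243, 5112 and 5494 of 12875 genes above 0. Without the genes with non-whole counts the median of the set was 0.26. Library size alone, and both settings that leave out genes with non-whole counts or overlapping exons, were chosen after seeing the data. The count of all genes past the threshold, 1 by edgeR, was 181 with DESeq2 and 1 to 44 when each library was left out (4 without KO replicate 1, 44 without KO replicate 3). The count among the 39, 0 by edgeR, was 3 with DESeq2 and 0 to 1 when each library was left out. With limma-voom it was also 0. Myc ran from 0.17 to 0.29 when each library was left out and did not pass under any alternative run, with adjusted p of 0.151 to 0.763. Dkc1 turned to -0.0013 with upper quartile scaling, -0.0257 with library size alone and -0.0272 on log2(FPKM + 1), and ran from -0.0434 (without KO replicate 1) to 0.1415 when each library was left out. Polr1a ran from -0.224 to 0.0686 (without WT replicate 3). The cause was not tested. Same-numbered WT and KO libraries deviated from their group means with correlations of 0.06, -0.06 and -0.17. Differently numbered libraries were not compared, so these values cannot decide whether the numbers pair the samples. With the replicate number as a block the median was 0.23, Myc 0.21, the genes past the threshold 1 and the 39 genes past it 0. With that block 6 of the 39 were at an unadjusted edgeR p of 0.05, and the share of all tested genes was not computed. With 3 libraries a group, changes below 2-fold are often missed at this spread.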

Other observations

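Max, which encodes the partner that MYC needs to bind DNA, was listed at 4.59 CPM in WT and 3.24 CPM in KO. Myc was at 1026 and 1189 CPM, and the Max relatives Mlx and Mga at 62.4 and 108 CPM in WT. CPM is not scaled by gene length, so these values do not rank the levels of different genes. Whether the low count of Max came from its level in the cells or from the counting of reads was not tested. The value therefore cannot be read as a near absence of Max. Mycn, the paralog of Myc, measured 112 CPM in WT and 93.1 CPM in KO, with overlapping groups. These genes were named after their values were seen.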
